A study of Mus musculus with 12 samples.

Results

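The response of C2C12 myotubes to a day of leukemia inhibitory factor (LIF) was read from 2 of the 12 arrays of the series, the treated and the untreated array that carry the 24 h LIF titles, over all 21187 genes that the arrays report. C2C12 is a mouse myoblast line whose cells fuse in culture into multinucleated myotubes. All cultures had differentiated for 3 days; the treated ones received mouse LIF at 10 ng/ml for 24 h, and the untreated ones were kept alongside for the same time. Total RNA of 3 wells was pooled for each array, so every value below comes from 1 array and no difference has a replicate check. The other arrays hold the same treatment at 4 and 8 h, and a parallel experiment with medium conditioned by C26 cells, mouse colon carcinoma cells studied for the wasting they cause in their host, each with untreated cultures of its own. The series title places the work in the study of muscle wasting by this tumour.

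LIF is a cytokine of the interleukin-6 family. It binds a receptor made of LIFR and the shared signalling chain gp130 (Il6st), which activates JAK kinases and the transcription factor STAT3. STAT3 induces its own inhibitor Socs3 along with acute phase and survival genes, and in muscle this family of cytokines has been studied both in regeneration, where it acts on myoblasts, and in wasting.

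Levels are log2 expression values as deposited, rounded by the authors to 1 decimal, and differences are LIF minus untreated, so a difference of 1.0 is 2-fold and a rounded difference of 0.6 or more counts here as 1.5-fold. Muscle cells are not known to use olfactory and vomeronasal receptor genes, and the level that 5% of 1261 such genes exceed was taken as the background, 4.5 on the LIF array and 4.7 on the untreated array. Above background on both arrays lay 13031 genes (61.5%), called bright below; 555 genes passed on 1 array alone and 7601 were dim on both. Bright genes differed by a median of 0.0 with an SD of 0.185 across genes, 86.5% of them by no more than 0.2 either way, while the receptor genes differed by a mean of -0.071 with an SD of 0.17. All 14 markers of differentiated myotubes on the list were bright, with Acta1, skeletal actin, at 11.7 on the LIF array and 11.6 on the untreated array and Mymk, which drives fusion, at 11.5 on both. The median level was 5.5 on both arrays, against 6.0 on the LIF arrays of 4 and 8 h. Levels were therefore not set against those of other times, save for Prg4 and Serping1, given as description only.

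Differences at 24 h were few and mostly small. Among bright genes 14 were 2-fold or more higher with LIF (0.107% of those compared) and 3 were lower by as much (0.023%). At 1.5-fold the counts were 103 higher (0.79%) and 56 lower (0.43%). Over all 21187 genes 22 were 2-fold or more higher (0.104%) and 8 lower (0.0378%), and of these 8 and 2 lay above background on 1 array alone, while 0 and 3 were dim on both. As a yardstick without LIF, the untreated array of 8 h against that of 4 h gave 127 bright genes 1.5-fold or more higher (0.921%) and 65 lower (0.471%). Those arrays differ in time as well, and a count at 1.5-fold is thus no larger than one seen between untreated cultures. The SD of the differences was 0.206 for bright genes with a mean level between 6 and 7 and 0.155 for those between 9 and 10.

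**Figure D1:**
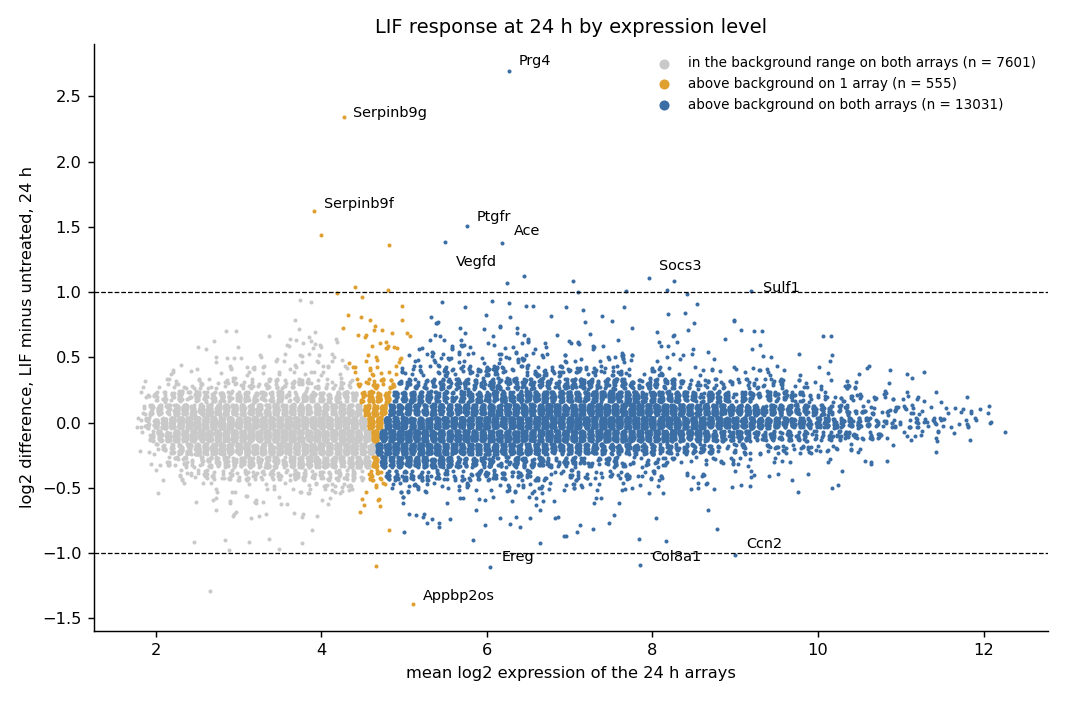
Log2 difference, LIF minus untreated at 24 h, against the mean log2 expression of both arrays for each gene, with points spread slightly because values are rounded; blue, above background on both arrays, orange, on 1 array, grey, on neither; dashed lines, 2-fold. Prg4 at 2.7 stands alone among the bright genes, and Serpinb9g at 2.3 and Serpinb9f at 1.6 are above background on the LIF array only.

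Prg4, the gene of lubricin, a secreted proteoglycan that lubricates joints and tendon surfaces, had the largest difference of any gene, 7.6 with LIF and 4.9 untreated (2.7). On the untreated array it lay close to the background of 4.7, so its fold is less certain than its presence on the LIF array. The prostaglandin F receptor gene Ptgfr had 6.5 with LIF and 5.0 untreated (1.5). Ace, which encodes the enzyme that forms angiotensin II and degrades bradykinin, had 6.9 with LIF and 5.5 untreated (1.4). These were the only bright genes with a known function past a difference of 1.1. The predicted genes Gm10343, at 6.2 with LIF and 4.8 untreated, and Gm5331, at 6.8 and 5.7, also passed 2-fold, and nothing is said here of what they encode.

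The JAK and STAT branch itself was uneven. Socs3, the feedback inhibitor, had 8.5 with LIF and 7.4 untreated (1.1), against a median of 0.15 over the 8 members of the SOCS list, all of them bright. Osmr, the oncostatin M receptor subunit that pairs with gp130, had 9.4 with LIF and 8.6 untreated (0.8), and the kinase gene Jak2 had 8.4 and 7.8 (0.6). The receptor chains that bind LIF differed by 0.1 at most: Lifr had 8.5 with LIF and 8.6 untreated, and Il6st 9.5 and 9.4. Stat3, the transcription factor they activate, had 9.4 with LIF and 9.1 untreated (0.3). The cytokine's own transcript Lif was lower, 5.8 with LIF and 6.4 untreated (-0.6). Of 19 bright genes on this list 2 were past 1.5-fold upward and 1 downward, with a median of 0.0. Among 23 bright transcription factor and survival genes known as STAT3 targets 16 were above 0, against 35.4% of all bright genes, and 6 below. Their median was 0.1. Only Cebpd, at 5.5 with LIF and 4.9 untreated, passed 1.5-fold upward, while Bcl3 differed by 0.4 and the D cyclin gene Ccnd1 was lower, 6.3 against 7.0.

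Letters of the kind STAT factors bind, TTCNNNGAA, which read the same on both strands, were searched in the 250 bases before each annotated start. A promoter was at hand for 55 of the 103 bright genes 1.5-fold or more higher, and 9 of those held the letters (16.4%). The share was 7.69% of 39 lower genes, 6.88% of 10034 bright genes and 8.13% of all 27025 genes with a promoter in the table. The 9 genes were Socs3, Cxcl14, Ifi202b, Tcp11x2, Adgrl2, Casp12, Pros1, Arid5b and Igsf10. Shown are Socs3, the known feedback gene, and the secreted chemokine gene Cxcl14 and the caspase gene Casp12, which holds 2 matches; capitals mark the letters. The sequences are those of RefSeq on GRCm38.p6, written along the strand of the gene, for Socs3 chr11:117969367-117969616 (minus), Cxcl14 chr13:56296552-56296801 (minus) and Casp12 chr9:5345226-5345475 (plus). A match is a run of letters and not a site shown to be bound. Other motifs were searched in the same way. The AP-1 letters TGANTCA were in 20.5% of the 39 lower genes, 5.45% of the 55 higher and 5.51% of bright genes. For the TEAD letters CATTCC these shares were 20.5%, 16.4% and 12.7%. They were 30.8%, 45.5% and 39.7% for CCAAT and 12.8%, 16.4% and 12.3% for TTTGAA. The STAT letters were thus not the only ones with a share above that of bright genes.
Socs3: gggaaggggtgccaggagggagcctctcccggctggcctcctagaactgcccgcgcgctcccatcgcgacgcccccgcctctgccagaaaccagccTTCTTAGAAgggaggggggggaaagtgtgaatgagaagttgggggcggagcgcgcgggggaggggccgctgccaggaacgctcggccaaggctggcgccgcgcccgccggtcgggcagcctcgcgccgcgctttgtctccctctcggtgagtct
Cxcl14: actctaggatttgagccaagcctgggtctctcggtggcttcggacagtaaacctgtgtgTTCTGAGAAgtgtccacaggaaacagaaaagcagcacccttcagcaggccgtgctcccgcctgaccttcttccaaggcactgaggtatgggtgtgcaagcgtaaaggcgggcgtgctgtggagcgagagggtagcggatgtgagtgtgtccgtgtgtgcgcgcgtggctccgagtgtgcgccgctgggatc
Casp12: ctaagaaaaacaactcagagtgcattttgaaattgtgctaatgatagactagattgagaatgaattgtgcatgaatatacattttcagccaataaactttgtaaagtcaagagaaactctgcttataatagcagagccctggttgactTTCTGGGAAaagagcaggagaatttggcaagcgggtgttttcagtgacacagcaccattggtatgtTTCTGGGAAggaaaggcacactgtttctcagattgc

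Receptors of type 2 cytokines, through which interleukin-4 and interleukin-13 act, formed the list with the highest median. Il4ra, the shared chain, had 8.7 with LIF and 7.7 untreated (1.0). Il13ra1 had 8.9 with LIF and 7.9 untreated (1.0). Il33, an alarmin cytokine, had 5.7 with LIF and 5.0 untreated (0.7), and Il2rg, the common gamma chain, 7.2 and 6.7 (0.5). The 5 bright members had a median of 0.7, with 3 past 1.5-fold, while the other 3 of the 8 measured, Il13ra2, Il1rl1 and Il4, were dim.

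Complement and coagulation regulators were a further group on the higher side. Serping1, the inhibitor of C1 and of plasma kallikrein, had 8.8 with LIF and 7.7 untreated (1.1). The membrane inhibitors Cd55 and Cd59a had 5.5 and 7.5 with LIF, against 5.0 and 7.1 untreated. Of the 9 bright members of the complement list 7 were above 0, against 35.4% of all bright genes, with a median of 0.4 and 1 past 1.5-fold; the other 13 of 22 were dim, and over all 22 the median was 0.0. C3, the central component, stood at 5.0 with LIF and 5.1 untreated. Of 178 KEGG pathways with at least 15 bright genes, the authors' annotation of complement and coagulation cascades had the highest mean difference, 0.152 over 29 genes. Its median of 0.1 was not the highest, mucin type O-glycan biosynthesis having 0.15. In the complement and coagulation pathway 62.1% of genes were above 0, against 35.4% of all bright genes, and 37.9% below, against 37.7%. Its 5 members past 1.5-fold were Serping1, the kininogen gene Kng2 (5.8 with LIF and 5.0 untreated), the bradykinin receptor gene Bdkrb1 (7.3 and 6.7), the anticoagulant protein S gene Pros1 (7.8 and 7.0) and the plasminogen activator gene Plat (8.4 and 7.8).

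Serpins of clade B, which inhibit granzymes and other proteases inside cells, included the gene with the second largest difference. Serpinb9g had 5.4 with LIF and 3.1 untreated (2.3), and Serpinb9f 4.7 and 3.1 (1.6), both in the background range on the untreated array. The family consists of near-identical copies that array probes may not separate. Of the copies above background on both arrays, Serpinb9b had 6.9 with LIF and 6.4 untreated and Serpinb9c 5.9 and 5.5. Serpinb1a, a neutrophil elastase inhibitor and the brightest of the group past 1.5-fold, had 10.4 with LIF and 9.7 untreated (0.7). All 5 bright members were above 0, against 35.4% of all bright genes, with a median of 0.4. Serpina3n, an acute phase inhibitor of another clade, was above background on the LIF array alone, 4.7 with LIF and 3.9 untreated (0.8).

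Genes of matrix, secreted growth factors and their processing were found at both ends. Decorin (Dcn), a small proteoglycan that binds collagen, had 8.2 with LIF and 7.2 untreated (1.0). The chondroitin-forming enzyme gene Csgalnact1 had 7.6 with LIF and 6.5 untreated (1.1), and Sulf1, which trims sulfate groups from heparan sulfate outside the cell, had 9.7 and 8.7 (1.0), with its relative Sulf2 at 8.5 and 7.9 (0.6). Vegfd, a growth factor of lymphatic vessels, had 7.0 with LIF and 5.9 untreated (1.1), Cxcl14 had 7.6 and 6.6 (1.0), and Igfbp4, which sequesters insulin-like growth factors, 9.0 and 8.1 (0.9). In the deposited annotation 23.3% of the higher and 30.4% of the lower bright genes past 1.5-fold carried the term extracellular region, against 5.36% of all bright genes; the term nucleus covered 14.6%, 12.5% and 31.2%. These terms were chosen after the values were seen. The 33 bright collagens and leucine-rich proteoglycans had a median of -0.1, with only Dcn and Col8a1 past 1.5-fold.

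Of inflammatory and innate genes, the caspase gene Casp4, a sensor of cytosolic lipopolysaccharide, had 7.0 with LIF and 6.1 untreated (0.9). Ifi202b and Ifi204, of an interferon-inducible DNA-binding family with near-identical copies, had 7.4 and 6.4 with LIF, against 6.5 and 5.6 untreated. Sting1, the adaptor of cytosolic DNA sensing, had 8.8 with LIF and 8.1 untreated (0.7), and Xaf1, a proapoptotic interferon target, 6.3 and 5.6 (0.7). The interferon list as a whole had 3 of 17 bright members past 1.5-fold and a median of 0.1, with Oasl2 at 5.4 with LIF and 5.5 untreated and the antigen presentation gene Tap1 at 4.8 and 5.0. A list of NF-kB targets and chemokines had 18 bright members, 6 above 0 and 10 below, with a median of -0.1. None was 1.5-fold or more higher and 2 were lower, Cx3cl1, 6.7 with LIF and 7.5 untreated, and Ccl17, 4.7 and 5.3. Short of 1.5-fold upward were Ccl7, 5.4 with LIF and 4.9 untreated, Cxcl12, 6.5 and 6.0, and Ccl11, 5.7 and 5.3. That list does not hold every chemokine: outside it, and named after their values were seen, Cxcl14 was higher by 1.0 and Ccl27a was lower, 4.9 with LIF and 5.6 untreated (-0.7).

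Further genes with a difference of 0.9 were Hsd11b1, which regenerates active glucocorticoid (6.7 with LIF and 5.8 untreated), Ampd3, an AMP deaminase (8.1 and 7.2), Nsg1, an endosomal protein (7.6 and 6.7), and Osr1, a transcription factor of connective tissue (6.9 and 6.0). Of the 17 bright genes on the glucocorticoid list Hsd11b1 and Angptl4 alone passed 1.5-fold and the median was 0.0. Of the targets of its receptor Fkbp5 had 6.1 with LIF and 6.4 untreated and Tsc22d3 6.8 and 6.9. In the lipid list Angptl4, an inhibitor of lipoprotein lipase, had 8.4 with LIF and 7.7 untreated (0.7), and Cpt1a, which admits fatty acids to mitochondria, 7.6 and 7.0 (0.6). Mgll, which cleaves monoglycerides, was lower, 6.0 with LIF and 6.7 untreated (-0.7). The mitophagy receptor gene Bnip3 had 7.7 with LIF and 7.1 untreated (0.6), the single member past 1.5-fold of 20 bright autophagy genes.

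Lists that hold Prg4, Ptgfr and Ace had few other members past 1.5-fold. Beside Prg4, the genes for hyaluronan and versican differed by at most 0.4: Ugdh, which makes a hyaluronan precursor, had 9.6 with LIF and 9.2 untreated, the proteoglycan gene Vcan 9.4 and 9.1, and the hyaluronan synthase gene Has2 9.0 and 8.8. Of 12 bright prostaglandin genes Ptgfr alone passed 1.5-fold, with the receptor gene Ptger4 at 7.0 with LIF and 6.6 untreated and the inducible cyclooxygenase gene Ptgs2 at 8.5 and 9.0. The 13 bright vasoactive and thrombin receptor genes split. Bdkrb1 passed 1.5-fold upward with Ace, and Ednra, an endothelin receptor, had 7.6 with LIF and 7.2 untreated. On the other side endothelin itself (Edn1) had 5.5 with LIF and 6.0 untreated, and the protease-activated receptor genes F2r and F2rl2 had 9.3 and 4.9 with LIF, against 9.7 and 5.7 untreated. The median of the list was -0.2. Among 17 bright matrix proteases and inhibitors 2 passed 1.5-fold upward, Mmp19 with 7.0 and 6.4 and the aggrecan-cleaving Adamts5 with 8.8 and 8.2, and none downward.

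Other growth factor lists showed single genes rather than a shift. Vegfd and Pdgfb were the only ones of 19 bright PDGF, HGF, FGF and VEGF genes past 1.5-fold, Pdgfb having 7.0 with LIF and 7.6 untreated. The platelet-derived growth factor receptors differed in sign, Pdgfra with 6.6 and 6.1 and Pdgfrb with 8.9 and 9.4. In the insulin-like growth factor list Igfbp4 stood out from 18 bright genes with a median of 0.0; Igfbp5 had 11.1 with LIF and 10.7 untreated, Igf1 6.2 and 6.4 and the insulin receptor substrate gene Irs1 8.7 and 9.0.

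**Figure D2:**
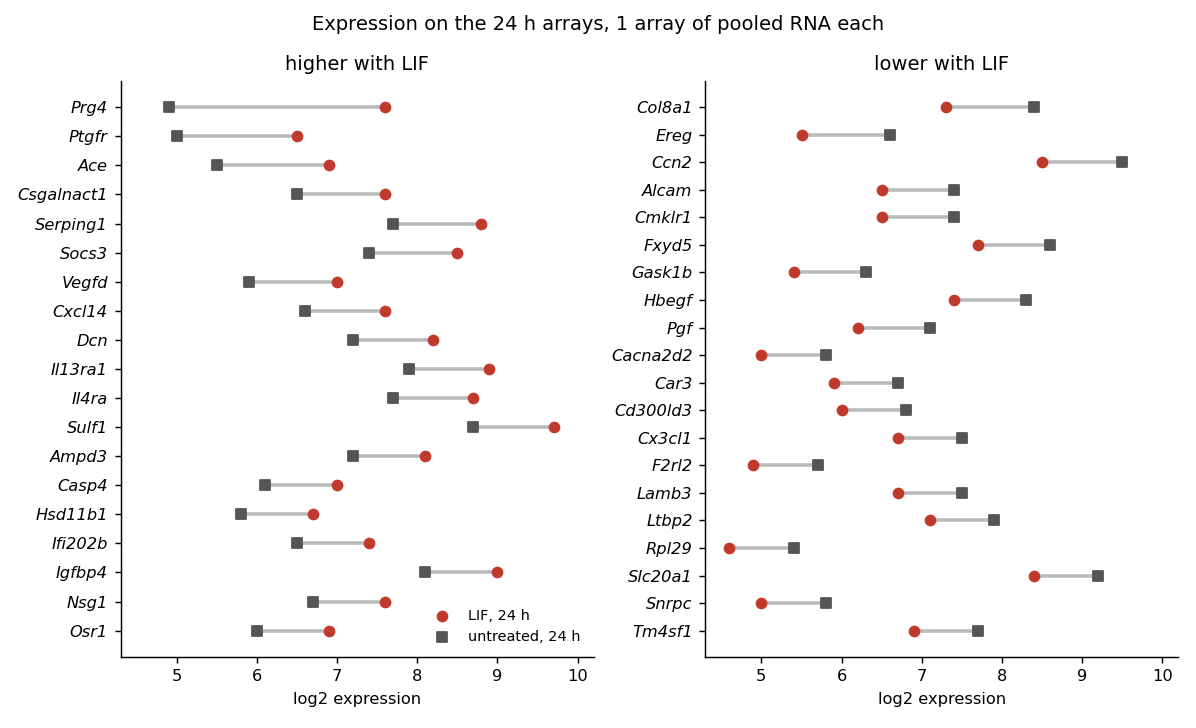
Log2 expression on the LIF array (red circles) and the untreated array (grey squares) at 24 h for the 19 highest (left) and 20 lowest (right) bright genes by difference, predicted and multicopy families left out; each point is 1 array of pooled RNA, so no error bar exists. The untreated levels of the higher genes run from 4.9 for Prg4 to 8.7 for Sulf1.

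On the lower side 3 bright genes were past 2-fold. Ereg, the EGF receptor ligand epiregulin, had 5.5 with LIF and 6.6 untreated (-1.1). Col8a1, a collagen of short networks, had 7.3 with LIF and 8.4 untreated (-1.1). Ccn2, connective tissue growth factor, had 8.5 with LIF and 9.5 untreated (-1.0). A further 6 genes were tied at -0.9. Hbegf, another EGF receptor ligand, had 7.4 with LIF and 8.3 untreated. Pgf, placental growth factor, had 6.2 with LIF and 7.1 untreated, and Alcam, a cell adhesion protein, 6.5 and 7.4. Cmklr1, the chemerin receptor, also had 6.5 and 7.4, Fxyd5, a sodium pump regulator, 7.7 and 8.6, and Gask1b 5.4 and 6.3. At -0.8, beside genes named elsewhere, were Car3, with 5.9 and 6.7, Cacna2d2, with 5.0 and 5.8, and Cd300ld3, with 6.0 and 6.8. So were Lamb3, with 6.7 and 7.5, Slc20a1, with 8.4 and 9.2, and Tm4sf1, with 6.9 and 7.7.

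Of 23 bright genes on the list of EGF receptor ligands and ERK feedback genes, which the pathway induces to restrain itself, 17 were below 0, against 37.7% of all bright genes, with a median of -0.2 and 2 past 1.5-fold. Among the feedback genes the phosphatase gene Dusp4 had 6.9 with LIF and 7.4 untreated. The transcription factor gene Etv4 had 5.5 and 6.0, and the Sprouty gene Spry1 7.4 and 7.8. Etv1 went the other way, 6.0 with LIF and 5.6 untreated (0.4), as 1 of 3 bright members above 0. Egfr itself stood at 7.8 with LIF and 7.9 untreated. Areg, a ligand close to Ereg in the genome and in kind, had 4.8 with LIF and 5.0 untreated, near the background. Of the immediate early genes only Egr2, at 7.0 with LIF and 7.6 untreated, passed 1.5-fold among 24 bright members.

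The lists of YAP and TEAD targets, of TGF-beta and activin genes and of smooth muscle genes each had most bright members below 0, against 37.7% of all bright genes, with medians close to 0. For 27 bright targets of YAP and TEAD, factors that respond to cell tension, 17 were below 0 and 2 above, with a median of -0.1. Only Ccn2 and Ccnd1 passed 1.5-fold, both downward. Ccn1 had 10.3 with LIF and 10.4 untreated, and F3 was higher, 5.8 with LIF and 5.3 untreated (0.5). In the TGF-beta and activin list 17 of 30 bright members were below 0 and 10 above, the highest at 0.4, with a median of -0.15. Inhba, the activin A subunit, had 8.3 with LIF and 9.0 untreated (-0.7), its antagonist Fst 8.8 and 9.3, and Ltbp2, a latent TGF-beta binding protein, 7.1 and 7.9 (-0.8). In the smooth muscle and Srf list 18 of 26 were below 0, none past 1.5-fold, with a median of -0.1 and Tagln at 9.5 with LIF and 9.9 untreated.

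Most bright genes on the lists of mitosis and DNA replication genes were lower, each by little, while the authors' KEGG annotations of DNA replication and cell cycle were shifted less. Of 33 bright mitosis genes 32 were below 0 and none was above, against 37.7% of all bright genes below 0, with a median of -0.3 and none past 1.5-fold. The largest differences were those of Ccnb2, a mitotic cyclin, at 7.9 with LIF and 8.4 untreated, Kif23, a motor of cytokinesis, at 6.7 and 7.2, and Nuf2, of the kinetochore, also at 6.7 and 7.2. Mki67, the proliferation marker, had 7.8 with LIF and 8.2 untreated, and Plk1, a mitotic kinase, 7.3 and 7.7. Of 32 bright DNA replication genes 29 were below 0, with a median of -0.3, and the ligase gene Lig1 alone passed 1.5-fold, 5.7 with LIF and 6.3 untreated. In the authors' KEGG annotation 20 of 33 bright DNA replication genes were below 0 and 9 above, with a median of -0.1. Its cell cycle pathway had 55 of 114 bright genes below 0 and 29 above, with a median of 0.0. Among inhibitors of cyclin-dependent kinases Cdkn1b had 7.1 with LIF and 6.7 untreated and Cdkn2c 6.6 and 6.2, while Cdkn1a, already at 11.5 untreated, had 11.6 with LIF. The kinase gene Cdk6 was also higher, 8.9 with LIF and 8.5 untreated. Of 13 bright genes on the list of D cyclins, their kinases and inhibitors 4 were above 0 and 4 below, with a median of 0.0. Myotubes have left the cell cycle, and the cultures can hold unfused mononucleated cells as well. In such bulk RNA fewer dividing cells and less of these transcripts per cell cannot be told apart.

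Promoters of mitosis genes are known to pair CCAAT boxes with a cell cycle homology region, TTTGAA. In the 250 bases before the start CCAAT, or its complement on the other strand, was in 20 of 27 mitosis genes with a promoter at hand (74.1%), against 39.7% of bright genes and 37.5% of all genes in the table. TTTGAA on either strand was in 10 of the 27 (37.0%), against 12.3% of bright genes and 18.3% of all. Such letters are a known feature of these genes and say nothing of LIF. Both motifs are in capitals in Ccnb2, chosen for its difference of -0.5, at chr9:70421555-70421804 (minus), and in Plk1, with CCAAT alone, at chr7:122159185-122159434 (plus), from RefSeq on GRCm38.p6 along the strand of the gene.
Ccnb2: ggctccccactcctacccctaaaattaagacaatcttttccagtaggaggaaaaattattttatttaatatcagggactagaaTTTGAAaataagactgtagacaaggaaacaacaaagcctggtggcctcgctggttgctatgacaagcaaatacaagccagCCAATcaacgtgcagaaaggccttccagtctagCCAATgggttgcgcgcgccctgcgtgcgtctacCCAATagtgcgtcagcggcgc
Plk1: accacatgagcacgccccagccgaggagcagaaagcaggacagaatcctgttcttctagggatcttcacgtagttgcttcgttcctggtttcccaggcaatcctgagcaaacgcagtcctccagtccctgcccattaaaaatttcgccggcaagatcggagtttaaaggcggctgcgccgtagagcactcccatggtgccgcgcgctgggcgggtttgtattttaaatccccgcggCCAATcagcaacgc

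Most listed genes of muscle structure and of protein breakdown stayed near 0. The 45 bright sarcomere genes had a median of 0.0, with Ttn at 10.8 with LIF and 10.6 untreated and the embryonic myosin gene Myh3 at 11.2 on both arrays. Exceptions past 1.5-fold were Mybpc2, the fast isoform of myosin binding protein C, at 6.8 with LIF and 6.1 untreated, its slow relative Mybpc1 at 6.2 and 6.9, and Myl2, the slow and ventricular light chain, at 6.3 and 6.9. Of the ubiquitin ligases known for muscle atrophy Fbxo32 (atrogin-1) had 8.4 with LIF and 8.2 untreated and Trim63 (MuRF1) 7.0 on both, within a list of 18 bright genes of which none passed 1.5-fold. The 30 proteasome subunits had a median of 0.0 and ranged from -0.3 to 0.4. The FoxO factor gene Foxo1 had 7.3 with LIF and 7.7 untreated, a difference of -0.4 that is -0.26 by the authors' deposited table. Myogenic factors were level, with Myog at 10.5 on both arrays and Myod1 at 9.3 with LIF and 9.4 untreated. Of the genes that hold myoblasts back or mark them, Myf5 had 7.3 with LIF and 6.9 untreated and Snai2 8.8 and 8.4, while the Notch target gene Heyl had 6.5 and 7.0 and Notch1 7.4 and 7.7. None of 15 bright neuromuscular junction genes or of 22 bright genes of excitation-contraction coupling passed 1.5-fold. The calcium channel subunit gene Cacna2d2, not on that list, was lower, 5.0 with LIF and 5.8 untreated (-0.8). It is part of the KEGG pathway of cardiac muscle contraction, where 55 bright genes had a median of 0.0. The KEGG pathways of hypertrophic and arrhythmogenic cardiomyopathy, which also hold it, had medians of 0.0. That of dilated cardiomyopathy had -0.1, with 35 of 69 bright genes below 0 and 13 above. Glycolysis, respiratory chain and cholesterol synthesis lists had medians between 0.0 and 0.1. The amino acid response list had a median of -0.1 and none past 1.5-fold. Of its 32 bright members 20 were below 0, against 37.7% of all bright genes, and 2 above.

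**Figure D3:**
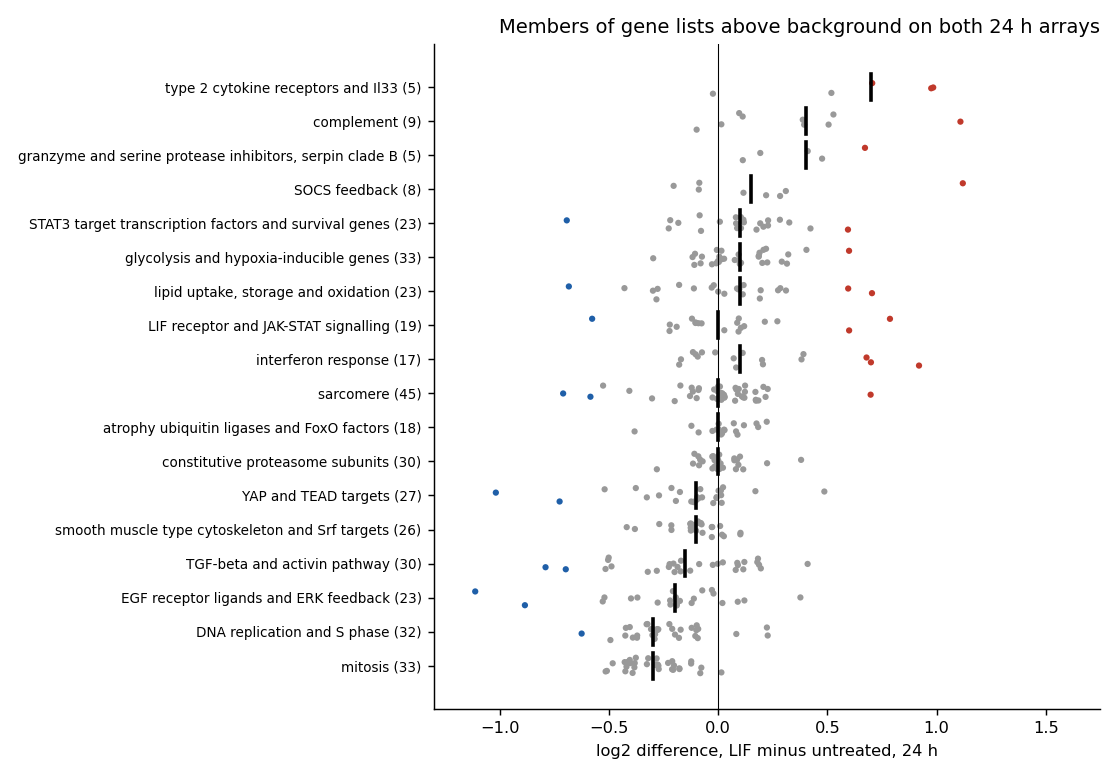
Log2 differences, LIF minus untreated at 24 h, of the members of 18 gene lists that lay above background on both arrays, with the number of such members in brackets; red, 1.5-fold or more higher; blue, 1.5-fold or more lower; black bar, median. Mitosis and replication genes sit left of 0 at a median of -0.3 and type 2 receptors right of it at 0.7, while sarcomere, proteasome and atrophy ligase genes centre on 0.0.

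Markers of other cells were set beside these values. Among fibroblast and mononucleated cell markers 12 of 16 were bright with a median of -0.05, with Ly6a at 10.5 with LIF and 9.8 untreated and Pdgfra at 6.6 and 6.1, but Pdgfrb at 8.9 and 9.4, Cd34 at 6.4 and 6.8 and Thy1 at 4.6 and 5.0. Over the 16 markers the mean level was 6.57 with LIF and 6.61 untreated. Their part in the higher matrix genes such as Dcn and in the lower division genes was not tested. Of 14 leukocyte markers 4 were bright, and the defining ones Ptprc (3.0 with LIF and 3.2 untreated), Adgre1 (2.9 and 3.0) and Csf1r (4.0 and 4.1) lay in the background range on both arrays. Cd53, a leukocyte tetraspanin, nevertheless had 6.6 with LIF and 6.0 untreated (0.6).

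The earlier LIF arrays, which have untreated arrays of their own, were set beside these differences. Fold changes of 4 and 8 h were deposited together and those of 24 h apart, and the median level was 6.0 against 5.5. Time of treatment and set of arrays therefore cannot be told apart in what follows. Of 13666 genes bright at 8 h 28 were 1.5-fold or more higher (0.205%) and 12 lower (0.0878%); at 4 h the counts were 15 (0.11%) and 13 (0.095%) of 13678. Of the 103 genes higher at 24 h, 66 were above 0 at 4 h (64.1%, against 32.1% of all genes bright at 24 h) and 83 at 8 h (80.6%, against 32.3%). Each of the 103 was larger at 24 h than at either earlier time, as genes picked for a large value at 24 h would tend to be, and 73 stepped up from 4 to 8 to 24 h. By 8 h 11 of them had already passed 1.5-fold, and by 4 h 2, Prg4 and Socs3. Prg4 stood at 1.3, 1.9 and 2.7 in difference at 4, 8 and 24 h, Socs3 at 0.7, 0.8 and 1.1, and Il4ra at 0.4, 0.7 and 1.0. Serping1 stood at 0.0, 0.4 and 1.1. A growing difference need not mean a growing level with LIF. Prg4 had 7.6, 8.1 and 7.6 with LIF at these times, and 6.3, 6.2 and 4.9 untreated. Its larger difference at 24 h thus went with a lower untreated level, on arrays whose median was lower as well. Serping1 had 8.2, 8.3 and 8.8 with LIF, and 8.2, 7.9 and 7.7 untreated. Dcn was at 0.0 at both earlier times and at 1.0 at 24 h, and 19 of the 103 were within 0.1 of 0 at both earlier times.

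Lower genes had a less regular course. Of the 56, 29 were below 0 at 4 h (51.8%, against 31.4% of all genes bright at 24 h) and 44 at 8 h (78.6%, against 28.2%), and 29 stepped down through the times. Ereg and Ccn2 both had -0.6 at 4 h and -0.2 at 8 h, before -1.1 and -1.0 at 24 h. Alcam and Fxyd5, each at 0.1 and then -0.1 and -0.2, reached -0.9. Across the 13031 bright genes the 24 h differences correlated with those of 8 h at Pearson's r = 0.339 (Spearman's rho = 0.278) and with those of 4 h at r = 0.029 (rho = -0.029), genes not being independent and all sharing the arrays of their time.

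**Figure D4:**
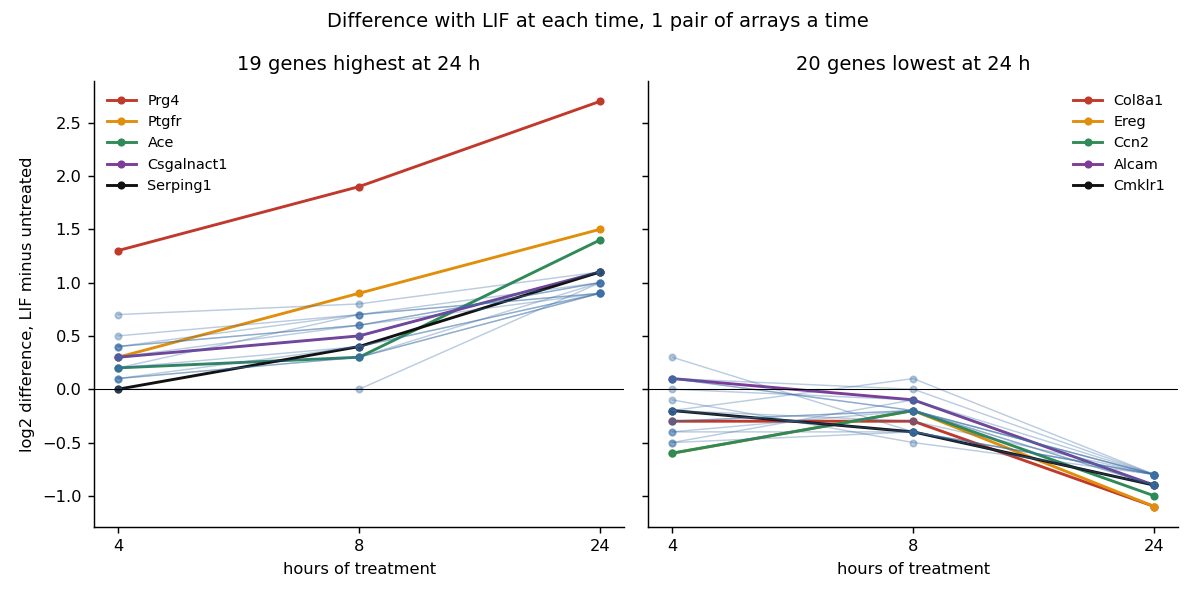
Log2 difference, LIF minus untreated, at 4, 8 and 24 h (evenly spaced) for the 19 highest (left) and 20 lowest (right) bright genes at 24 h; each line is a gene, each point 1 pair of arrays, and 5 genes a panel are named. Prg4 stands at 1.3, 1.9 and 2.7, and Ereg and Ccn2 return to -0.2 at 8 h before their lowest value.

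The mitosis and replication lists had medians of opposite sign at 4 and 24 h. The bright mitosis genes had a median difference of 0.1 at both 4 and 8 h, against -0.3 at 24 h, and Mki67 had 0.3, 0.1 and -0.4. For the replication genes the medians were 0.3, 0.0 and -0.3, with Mcm5, of the replicative helicase, at 0.6, -0.1 and -0.4. No test of the difference between times was possible with 1 pair of arrays each.

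The conditioned medium arrays of 24 h, also with their own untreated array, differed in many of the same genes. There 155 of 14001 bright genes were 1.5-fold or more higher (1.11%) and 198 lower (1.41%). Of genes bright on all 4 arrays, 100 were higher with LIF, and 33 of these were also higher with the medium (33.0%, and 26.6% of the 124 higher with the medium), none being lower. Of 55 lower with LIF 30 were also lower with the medium (54.5%, and 16.5% of its 182), and 1, the predicted gene Gm5614, was 1.5-fold or more higher. Differences with the medium were 2.04 for Prg4, 1.91 for Ptgfr, 0.92 for Serping1, -1.56 for Gask1b, -1.41 for Ccn2 and -1.05 for Ereg. Ace went the other way, 1.4 with LIF and -0.46 with the medium, where it had 7.04 treated and 7.5 untreated. The mitosis list had a median of -0.7 with the medium and the interferon list 0.51, against -0.3 and 0.1 with LIF. Over the 13031 bright genes the correlation was weak, with Pearson's r = 0.226 and Spearman's rho = 0.082, and r = 0.127 over the 12872 under 1.5-fold with LIF.

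**Figure D5:**
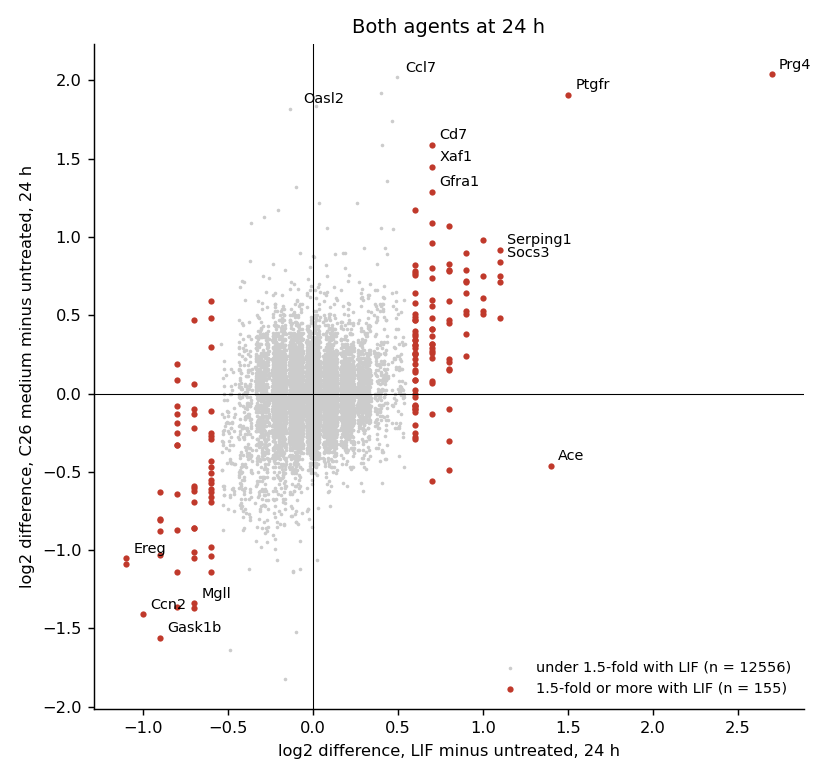
Log2 difference at 24 h with conditioned medium against that with LIF for 12711 genes above background on all 4 arrays; red, 1.5-fold or more with LIF (155 genes); grey, the rest. Most red points lie in the quadrants where both agents differ the same way, and Ace lies below 0 with the medium at -0.46.

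Genes below background need separate reading. Of the 7601 dim genes 25 were 1.5-fold or more higher and 38 lower, with a median of -0.1, the same as that of the receptor genes, so the balance below background leaned downward as a whole. The lean reached the weaker bright genes: those with a mean level from 4 to 5 and from 5 to 6 also had a median of -0.1. At higher levels the median was 0.0. The 3 dim genes past 2-fold downward were H2-Q7, a nonclassical histocompatibility gene with close copies (3.0 with LIF and 4.0 untreated), C130026I21Rik (2.4 and 3.4) and the predicted gene Gm10435 (2.0 and 3.3). Higher among dim genes were the serpin copy Serpinb9e, 4.3 with LIF and 3.4 untreated, and the neutrophil chemokine gene Cxcl5, 4.3 and 3.6. Among genes above background on 1 array, Hpgd, which inactivates prostaglandins, had 5.0 with LIF and 4.0 untreated, Slc10a4 4.7 and 3.7, and the noncoding Appbp2os 4.4 and 5.8. Rpl29, at 4.6 with LIF and 5.4 untreated, Rpl6, at 4.7 and 5.3, Snrpc, at 5.0 and 5.8, and Npm1, at 9.6 and 9.0, belong to families with many processed copies in the genome that a probe set may share, and their values are uncertain for that reason.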

How the data were processed

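The 12 samples are Affymetrix mouse gene 1.0 ST arrays, grouped by title. The authors deposited log2 expression values, 1 per Entrez gene, made with RMA, as the submitters' processing notes name it. Which version, probe sets and genome build they used is not given in the sources used here. LIF values are rounded to 1 decimal, so differences are multiples of 0.1, and conditioned medium values to 2 decimals. The authors' deposited fold changes for 24 h matched the log2 differences within rounding for 100.0% of genes and served as an alternative, and 12 columns of per-sample values in the deposited tables were not used. Symbols were updated through RefSeq GRCm38.p6 (20819 of 21187 identifiers matched, 1943 renamed, 15 without a symbol).

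The difference of the treated and untreated array was taken with no test, since each group has 1 array. Background was the 95th percentile of 1261 receptor genes per array; the number of arrays limits the precision. Gene lists, named genes and the division of the data were chosen with earlier results of these data known, and the lists give no independent support. Selected for naming were the 15 highest and 15 lowest bright genes with ties (19 and 20). To these were added genes past 2-fold above background on 1 array and up to 5 dim genes each way. All members of a list past 1.5-fold, up to 4 others a list, and Lif, Lifr, Il6st, Stat3, Socs3 and Prg4 completed the selection. Some list members and dim genes so selected are not given in the text. Predicted genes, receptors, small RNA, histone and immunoglobulin genes, 4456 in all, were left out of ranks and kept in counts; any further gene named was picked with its values in view. Alternatives tried: the deposited fold changes, centring, quantile normalization, a running median over level, other folds and other backgrounds. Python 3.11.15 with pandas 2.3.3 was used, and the calls were tested on simulated arrays.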

Additional observations from a re-analysis of the deposited data

Results flagged for a closer look

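Aph1a, a subunit of gamma-secretase, was flagged because its difference with LIF turned round between times, -0.7 at 8 h and 0.7 at 24 h, with 0.4 at 4 h; the change was not tested, having 1 pair of arrays a time. At 24 h it had 6.4 with LIF and 5.7 untreated.

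The DNA replication and S phase list was flagged for the same reason, with a median over bright members of 0.3 at 4 h and -0.3 at 24 h. This too was not tested.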

How the results depend on the processing

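The 4 counts of genes past a fold stayed within 1.5 times under the deposited fold changes, quantile normalization and the running median, and those at 1.5-fold also with the background at the 99th or 90th percentile. Centring could change nothing, because the median difference was 0.0. The deposited fold changes are the same differences under another rounding. Neither is thus an independent check, for these counts or for the lists. Genes 2-fold or more higher numbered 159 at 1.5-fold, 3 at 3-fold and 14 with bright genes only, against 22; genes lower numbered 103, 0 and 3, against 8. At 2-fold the bright counts of 103 higher and 56 lower became 14 and 3. Values are rounded to 0.1, so an alternative added after seeing the data asked that a fold be passed by that step: the counts were then 13 and 5 over all genes, and 62 and 37 for bright genes at 1.5-fold. Over all measured members in place of bright ones the medians of type 2 receptors (0.35), complement (0.0) and clade B serpins (0.25) were lower, as were those of acute phase genes (-0.1) and epithelium markers (-0.1), and that of vasoactive genes was -0.05. No gene list moved by more than 0.1 under the deposited fold changes or quantile normalization. Of the 255 genes selected for naming, none past 1.5-fold changed sign. With the deposited fold changes 6 of the 255, Foxo1, Plaur, Fst, Ptgs2, Krtap31-2 and Snrpc, moved by more than 0.1. Bright mitosis genes kept a median between -0.26 and -0.3 under every scaling run. No paired analysis was possible because each group has 1 array and the labels carry no replicate numbers. With 1 array of pooled RNA a side, the spread between cultures is unknown, and a dim gene's fold is understated where background sets its level.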
